A study of Mus musculus with 30 samples.

Results

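The clustered replication-dependent histone genes of the mouse were described in C2C12 myotubes, which form from a myoblast line that fuses on serum withdrawal. Members were the protein-coding genes of the count table whose older symbol names a clustered histone (Hist1h to Hist4h) or whose current symbol names the same family, which gave 67 of 55487 genes. They comprised 6 H1, 18 H2A, 18 H2B, 12 H3 and 13 H4 genes. Another 3 genes with such names (Hist1h2aj, Hist1h2al and Hist3h2bb-ps) are annotated as pseudogenes and were left out. Of the 67 members, 56 had enough counts to be tested, namely 5 H1, 14 H2A, 14 H2B, 11 H3 and 12 H4 genes.

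All 30 libraries came from wild-type C2C12 cells that were grown to confluence, differentiated for 4 days with 2% horse serum in low glucose medium and then kept for 4 more days in 1 of 5 conditions, so that RNA was taken on day 8. The conditions were continued 2% horse serum (2% HS), serum deprivation without horse serum (SD), SD with 100 nM metformin (MET), SD with 500 nM leucine (LEU) and SD with both agents at those doses (MET+LEU). Each condition had 6 replicates of 1 cell line. Nothing states whether they were separate differentiations, so p-values measure the spread between these libraries, which may be technical. Total RNA depleted of ribosomal RNA was sequenced, a preparation that does not need a poly(A) tail. Libraries held 12784960 to 19604103 counts, of which the members took 0.0652% to 0.12%.

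Core histones H2A, H2B, H3 and H4 form the octamer on which DNA is wrapped, and the linker histone H1 binds where DNA enters and leaves it. Genes of this family are transcribed mainly while DNA is replicated, from tandem and divergent copies gathered at a few loci, and their mRNAs end in a conserved stem-loop instead of a poly(A) tail. The stem-loop is bound by SLBP, and the mRNAs are cleaved behind it by a complex guided by the U7 small nuclear RNA and are degraded when replication stops. Skeletal myotubes are post-mitotic, so that the transcripts of these genes are known mostly from cycling myoblasts, although some members are also transcribed as polyadenylated forms in differentiated cells.

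The stem-loop is shown here because it defines this class of mRNA and was not used to choose the members. A search in GENCODE M21 transcripts (GRCm38) looked within 100 bases after the stop codon, on the sense strand, for 16 bases in which 6 outer bases on each side pair, the left arm opens with GG and ends with T, and the loop of 4 bases has T at the first and the third position. It was found in 46 of the 54 members with an annotated 3′ UTR (85.2%) and in 3 of 21051 other protein-coding genes (0.0143%). The 8 forms found are written 5′ to 3′ as DNA, with the paired arms in capitals and the loop in lower case, each with 1 member as an example.
Hist1h1e (minus strand, chr13:23621782-23621797), 26 members: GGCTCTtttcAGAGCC
Hist1h4f (minus strand, chr13:23551291-23551306), 7 members: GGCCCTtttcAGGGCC
Hist1h2bk (plus strand, chr13:22036300-22036315), 6 members: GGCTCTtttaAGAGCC
Hist1h4i (minus strand, chr13:22040966-22040981), 2 members: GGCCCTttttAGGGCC
Hist1h4b (plus strand, chr13:23757366-23757381), 2 members: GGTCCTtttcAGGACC
Hist1h4a (minus strand, chr13:23760800-23760815), 1 member: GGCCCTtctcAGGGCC
Hist1h3g (plus strand, chr13:23535889-23535904), 1 member: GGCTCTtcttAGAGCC
Hist2h2ac (minus strand, chr3:96220418-96220433), 1 member: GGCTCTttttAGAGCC

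The arms divided the classes. The 4 forms whose left arm is GGCTCT were found in members of H1, H2A, H2B and H3, and the other 4 forms in the 12 H4 members with a stem-loop. Of the remaining members, 8 had a 3′ UTR without this motif in the window and 13 had no annotated 3′ UTR, so that nothing could be read for the latter. The annotation ran at most 100 bases past the stem-loop in 23 members and further in the other 23.

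Promoters are shown for the H2B gene and the H4 gene with the largest fall in their class in MET+LEU vs. SD. RefSeq windows (GRCm38.p6) were matched to 62 of the 67 members, and Hist1h2bc, Hist2h2be, Hist1h3f, Hist1h3a and Hist2h4 had none. The 250 bases before the start site are written 5′ to 3′ in the direction of transcription. Capitals mark the letters of the TATA box (TATAAA), the CCAAT box (CCAAT) or the octamer (ATTTGCAT), on either strand and at any distance from the start.
Hist1h2bk (plus strand, chr13:22035571-22035820): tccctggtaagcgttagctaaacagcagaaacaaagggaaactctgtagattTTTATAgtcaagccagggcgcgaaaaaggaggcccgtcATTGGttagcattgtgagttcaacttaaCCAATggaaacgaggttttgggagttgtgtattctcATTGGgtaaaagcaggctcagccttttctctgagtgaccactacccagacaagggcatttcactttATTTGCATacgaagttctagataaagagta
Hist1h4f (minus strand, chr13:23551669-23551918): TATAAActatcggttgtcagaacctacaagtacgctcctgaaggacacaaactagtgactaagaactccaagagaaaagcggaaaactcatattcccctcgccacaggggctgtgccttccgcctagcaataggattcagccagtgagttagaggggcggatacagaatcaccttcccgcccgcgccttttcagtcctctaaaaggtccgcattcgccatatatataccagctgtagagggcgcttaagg

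CCAAT, the core of the NF-Y site, was present in 54 of 63 member windows of 300 bases (85.7%), against 12289 of 32851 windows of all genes (37.4%). It was in 6 of 6 H1, 18 of 18 H2A, 17 of 17 H2B and 10 of 10 H3 windows, and in 3 of 12 H4 windows. ATTTGCAT, the octamer bound by POU factors, was in 7 of 18 H2A and 7 of 17 H2B windows and in no window of the other classes, 22.2% of member windows against 1.74% of all. TATAAA was in 55.6% of member windows and 13.6% of all. These are matches of letters only, no motif contains another, and divergent neighbours can share part of a window. Hist1h2bk held each of the 3 motifs, and Hist1h4f held TATAAA alone.

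Members lay on 4 chromosomes of the GRCm38 genome. Chromosome 13 held 54, in a group of 31 (23531050 to 23934851) and a group of 23 (21715763 to 22043676). Chromosome 3 held 10 (96219865 to 96270132), chromosome 11 held Hist3h2a and Hist3h2ba, and chromosome 6 held Hist4h4. Many are near copies: 32 members had fewer than 50% of their 50-base words unique among annotated transcripts, and how reads shared by copies were counted is not given in the sources used here, so values of those members are uncertain as to which copy they belong to. Some also share exon bases with a neighbour on the same strand, as Hist1h1e does with Hist1h2be (496 bases, 25.7% of its exons), Hist3h2a with Trim17 (708 bases) and Hist2h2bb with Gm42743 (226 bases). Antisense genes cover 100% of the exon bases of Hist2h3b, Hist2h2bb, Hist2h2aa1 and Hist2h2aa2. They cover 68.2% in Hist2h2ab and 56.2% in Hist1h4b. The strand setting of the counting is not given, so the part of such genes in these counts is unknown.

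The 11 members not tested held 0 to 169 counts over all libraries. Hist1h1t, the testis H1, had 22, and Hist1h2aa and Hist1h2ba, a divergent pair known from testis, had 0 and 2. Hist1h2ao (34), Hist1h2ap (14), Hist1h2bq (48), Hist1h2br (169) and Hist1h4m (142) lie in the group of 23 on chromosome 13. Hist3h2ba had 19 and Hist2h2aa1 had 8. In Hist1h2ao, Hist1h2ap, Hist1h2bq, Hist1h2br, Hist1h4m and Hist2h2aa1 only 2.68% to 11.3% of the 50-base words are unique. Their low counts therefore need not mean low transcription. Hist2h2aa1 also shares 90.3% of its exon bases with Gm20634 on the same strand. Hist2h3c1 had 0 counts, which allows up to 3 counts in a library and covers counting error only, but none of its 50-base words is unique and its exons lie wholly within Gm20634 on the same strand, so nothing can be said of its transcription.

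A pair of linker histone genes and several H4 genes held the highest levels. Per kilobase of exon, on the scale of CPM (counts per 1000000 counts, after TMM scaling) averaged over the 30 libraries, Hist1h1c stood highest at 130.3, followed by Hist1h4h at 83.4, Hist1h4d at 65.0, Hist1h4c at 60.5 and Hist1h1e at 60.5. The median of the tested members was 13.7 per kilobase and the lowest was Hist2h2be at 0.627. Without regard to length, Hist1h1c (H1.2) and Hist1h1e (H1.4) took 20.2% and 11.6% of the summed CPM of the tested members. The classes differed in precision: the median standard error of a log2 fold change in MET+LEU vs. SD was 0.08 for H1, 0.22 for H2A, 0.165 for H2B, 0.12 for H3 and 0.115 for H4. Both the level and the share of unique words differed between classes, and their parts in the errors were not separated.

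MET+LEU replicate 6 stood apart from the other libraries. Ribosomal RNA took 5.85% of its counts and mitochondrial ribosomal RNA 7.64%, against at most 1.96% and 0.760% elsewhere, and it held the lowest MET+LEU value of 29 of the 56 tested members and the highest of 7. Without it 2 members rose and 30 fell in MET+LEU vs. SD (2 and 32 with it), and the median log2 fold change was -0.440. Mitochondrial ribosomal RNA also ran higher in MET+LEU (0.649% to 7.64%) than in SD (0.281% to 0.367%) and 2% HS (0.219% to 0.306%). It ran at 0.501% to 0.710% in LEU, also above SD throughout, and at 0.244% to 0.705% in MET, and its part in the members' changes was not tested.

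Summed over the genes of a class, the levels followed different courses. H4 genes together gave 260.4 to 316 (median 295) CPM in 2% HS, 269.9 to 372 (median 338) in SD, 283 to 340.3 (median 311) in MET, 291 to 319.5 (median 299.7) in LEU and 172 to 275 (median 247) in MET+LEU. H3 genes gave 119.6 to 136 (median 124) CPM in 2% HS, 124 to 159.9 (median 144) in SD, 122 to 155 (median 135) in MET, 118 to 134 (median 125) in LEU and 85.9 to 107 (median 98.7) in MET+LEU. In both classes MET+LEU held the lowest median, and for H3 its highest library lay under the lowest library of every other condition. H2B genes gave 97.3 to 114 (median 111) CPM in 2% HS, 125 to 159.9 (median 144) in SD, 131 to 157 (median 142) in MET, 131 to 145 (median 137) in LEU and 115 to 149.8 (median 130.4) in MET+LEU. H2A genes gave 45.1 to 60.7 (median 55.9) CPM in 2% HS, 51.3 to 84.2 (median 68.8) in SD, 66.9 to 80.99 (median 71.5) in MET, 52.4 to 71.2 (median 60.1) in LEU and 50.5 to 62.2 (median 57.1) in MET+LEU. In these 2 classes the median was lowest in 2% HS. H1 genes gave 316 to 357 (median 342) CPM in 2% HS, 312 to 430.2 (median 364) in SD, 394 to 464 (median 419) in MET, 385 to 453 (median 437) in LEU and 347 to 428 (median 404) in MET+LEU. Here the lowest median was in 2% HS and the highest in LEU. No test was run on the sums, which are weighted to their most abundant members. Bulk RNA cannot tell fewer cells with these transcripts from less of them in each cell.

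**Figure D1:**
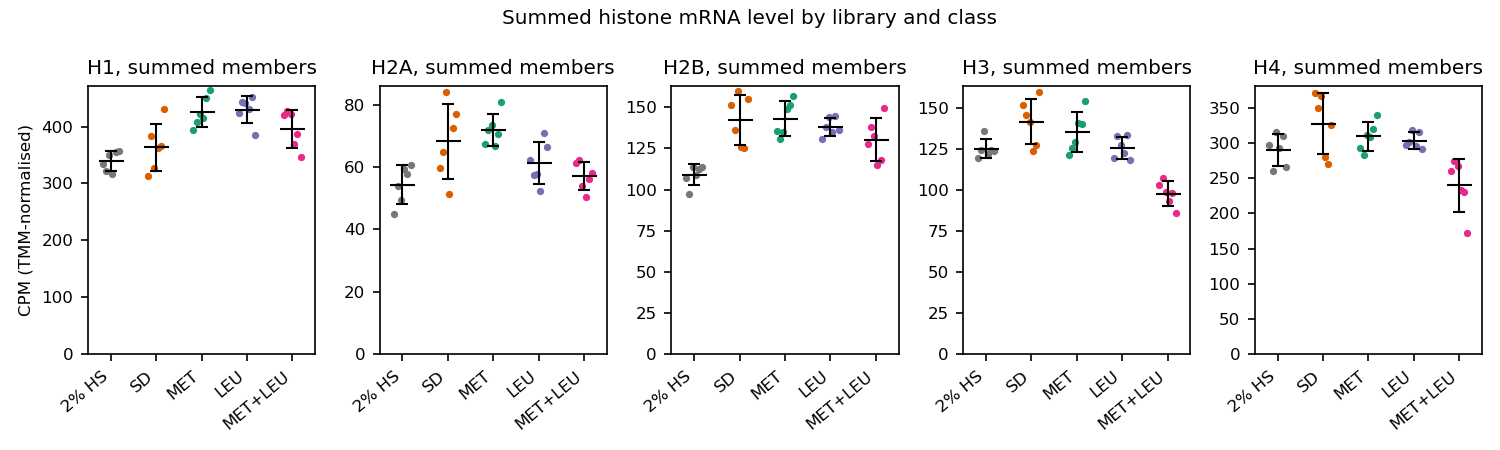
Summed CPM of all members of a class (vertical axes from 0, each with its own scale) in the 6 libraries of each condition, with points for libraries and bars for the mean ± SD. The H3 points of MET+LEU, 85.9 to 107.4 CPM, lie under those of every other condition, and the H4 points reach down to 172.1 in MET+LEU replicate 6.

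SD vs. 2% HS asked what removing serum did to myotubes. Of the 56 tested members 18 rose and 0 fell (edgeR quasi-likelihood test, adjusted p under 0.05), where 13.9% of all 15907 genes tested rose and 13.9% fell. The median log2 fold change of the members was 0.33, against 0.003 over all genes, and 52 of 56 values were above 0. At an unadjusted p under 0.05, 24 were higher (42.9%, against 19.1% of all genes) and 0 lower, and the DESeq2 and limma-voom tests also called 0 lower. By class 1 of 5 H1, 3 of 14 H2A, 5 of 14 H2B, 4 of 11 H3 and 5 of 12 H4 genes rose, and for H1 and H2A these counts are near the share of all genes. In 4 members, Hist3h2a, Hist1h2bc, Hist1h3g and Hist1h4a, all 6 SD libraries lay above all 6 libraries of 2% HS, which held for 6.17% of all genes, and no member lay under without overlap, which held for 7.42%.

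Members are shorter (median exon length 536.5 against 3835 bases) and richer in GC (57.9% against 49.4%) than the genes tested, so the count was repeated with both taken into account. With an offset for GC content and length fitted per library, 8 members rose and 1 (Hist2h3b) fell, all 8 being among the 18, and the median became 0.187. These 8 are 14.3% of the members, next to 14.2% of all genes that rose with the same offset, so the share of members that rose was then no larger than that of all genes. The member that fell is 1.79%, next to 15.3% of all genes. The calls kept were those of Hist2h2ac, Hist3h2a, Hist1h2bc, Hist1h2bh, Hist2h2bb, Hist1h3g, Hist1h4a and Hist1h4i.

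The largest called rise was that of Hist3h2a, an H2A gene outside the large clusters (H2aw, ENSMUSG00000078851, chr11:58954685-58956830). Hist3h2a ran at 1.70 to 2.77 (median 2.01) CPM in 2% HS, 2.84 to 4.68 (median 3.23) in SD, 2.05 to 3.82 (median 3.34) in MET, 1.95 to 3.45 (median 2.67) in LEU and 1.83 to 3.89 (median 3.18) in MET+LEU. Its SD libraries lay above the 2% HS libraries throughout, and the log2 fold change was 0.76 ± 0.19 (adjusted p = 0.00136). Among the H2B genes called it was Hist1h2bh (H2bc9, ENSMUSG00000114456, chr13:23541714-23543392) with 0.50 ± 0.16 (adjusted p = 0.0122), and it ran at 2.32 to 4.37 (median 3.34) CPM in 2% HS and 3.31 to 6.27 (median 4.74) in SD, with overlap between the groups.

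Hist1h3g (H3c8) was the called H3 gene that rose most. Hist1h3g ran at 6.48 to 8.29 (median 6.90) CPM in 2% HS, 8.30 to 12.6 (median 10.2) in SD, 8.18 to 12.7 (median 9.47) in MET, 6.14 to 9.45 (median 8.02) in LEU and 4.97 to 7.84 (median 5.71) in MET+LEU. The difference between SD and 2% HS was 0.53 ± 0.12 (adjusted p = 0.000524), without overlap. For H4 it was Hist1h4i (H4c9). Hist1h4i ran at 6.85 to 12.2 (median 8.30) CPM in 2% HS, 9.54 to 15.6 (median 11.6) in SD, 10.5 to 13.5 (median 11.8) in MET, 9.48 to 11.5 (median 10.5) in LEU and 7.20 to 8.92 (median 8.26) in MET+LEU. Its log2 fold change was 0.48 ± 0.11 (adjusted p = 0.000627), and the 2% HS and SD libraries overlapped. Among linker histones Hist1h1b (H1.5), which is known from dividing cells, rose by 0.32 ± 0.11 (adjusted p = 0.0281). Hist1h1b ran at 12.2 to 17.7 (median 13.8) CPM in 2% HS, 14.2 to 23.7 (median 17.4) in SD, 13.6 to 22.6 (median 19.3) in MET, 15.1 to 17.6 (median 15.9) in LEU and 11.02 to 15.01 (median 13.7) in MET+LEU. Its highest SD value came from SD replicate 6, and the other SD libraries, at 14.2 to 17.6, lay within the range of 2% HS. The call was lost with the GC and length offset.

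Few of the most abundant members were called on serum withdrawal. Hist1h1c changed by 0.14 ± 0.07 (adjusted p = 0.146) and Hist1h1e by -0.05 ± 0.07 (adjusted p = 0.706). Hist1h4d changed by 0.08 ± 0.07 (adjusted p = 0.403) and Hist1h4c by 0.25 ± 0.11 (adjusted p = 0.0924). Of the 2 most abundant H3 genes, Hist1h3f gave 0.18 ± 0.10 (adjusted p = 0.165) and Hist2h3b -0.09 ± 0.09 (adjusted p = 0.493). Hist1h2ak and Hist1h2ab, the leading H2A genes, gave 0.22 ± 0.26 (adjusted p = 0.587) and 0.16 ± 0.12 (adjusted p = 0.34). The H2B gene Hist2h2bb did rise, by 0.43 ± 0.09 (adjusted p = 0.000413), as did Hist1h2bc, described further on. Hist2h2bb ran at 11.9 to 16.8 (median 13.6) CPM in 2% HS, 13.8 to 22.98 (median 18.2) in SD, 19.1 to 22.6 (median 20.8) in MET, 15.5 to 20.4 (median 17.96) in LEU and 14.3 to 20.01 (median 16.9) in MET+LEU. It did not pass in MET+LEU vs. SD (-0.11 ± 0.09, adjusted p = 0.433).

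**Figure D2:**
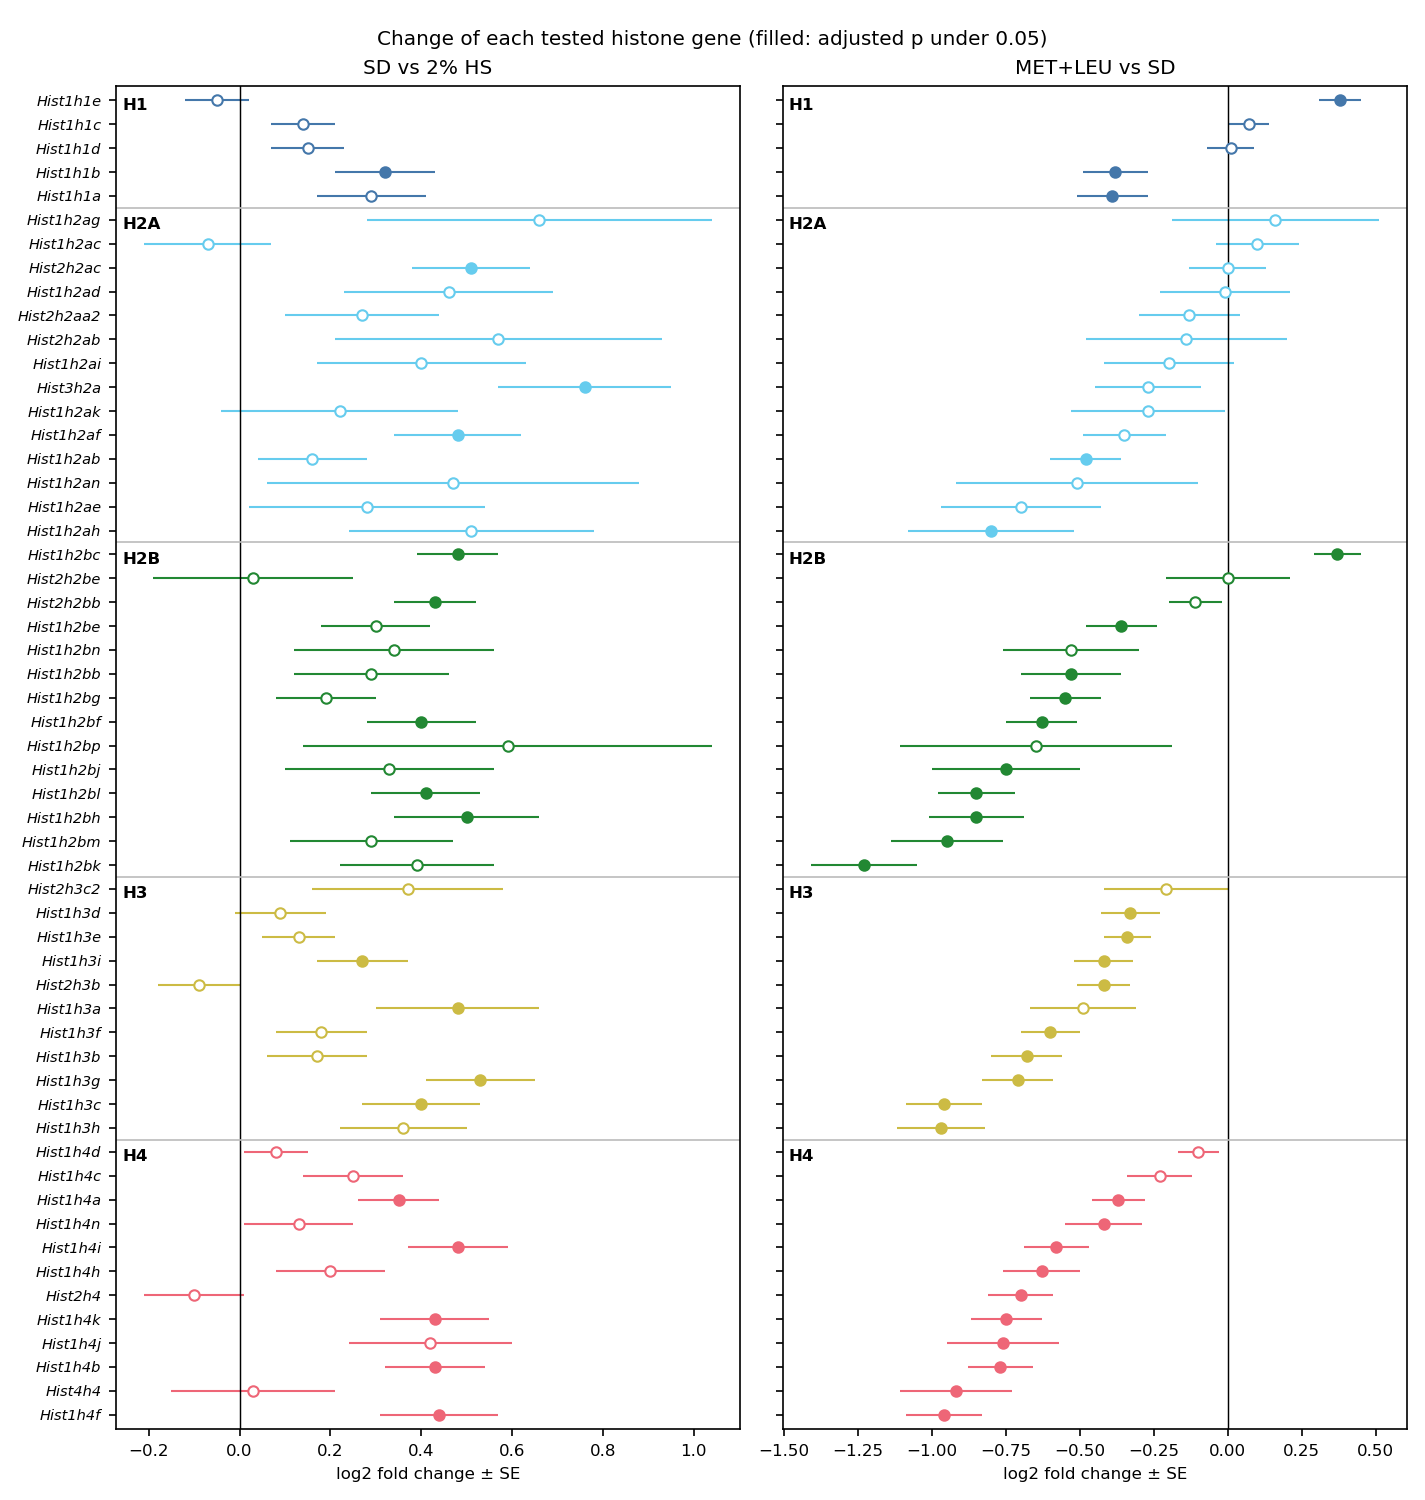
Log2 fold change (horizontal axes, ± SE) of each of the 56 tested members in SD vs. 2% HS (left) and MET+LEU vs. SD (right), ordered by class and by the right-hand value, with filled points for adjusted p under 0.05. The left panel holds 18 filled points, all above 0, and the right panel holds 32 below 0 and 2 above 0 (Hist1h1e and Hist1h2bc). The 2 panels share the SD libraries and have different horizontal scales.

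MET+LEU vs. SD asked what both agents together did during serum deprivation. Most of the replication-dependent histones fell: 32 of 56 were lower and 2 higher, where 7.8% of all genes tested fell and 10.6% rose. The median log2 fold change was -0.45, against -0.005 over all genes. H4 (10 of 12 fell, median -0.67), H3 (9 of 11, median -0.49) and H2B (9 of 14, median -0.59) gave most of the calls. Of the H2A genes 2 of 14 fell (median -0.24), with wider errors, and of the H1 genes 2 of 5 fell and 1 rose (median 0.01). Whether classes differed was not tested. In 16 members all MET+LEU libraries lay under all SD libraries, which held for 1.93% of all genes, and in 1 (Hist1h2bc) they lay above, which held for 3.41%.

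The largest fall was that of Hist1h2bk, an H2B gene of the group of 23 on chromosome 13 (H2bc12, ENSMUSG00000062727, chr13:22035870-22036345), whose promoter and stem-loop are printed above. Hist1h2bk ran at 3.08 to 3.86 (median 3.52) CPM in 2% HS, 3.31 to 5.58 (median 4.47) in SD, 2.45 to 4.93 (median 3.78) in MET, 1.62 to 3.16 (median 2.67) in LEU and 1.05 to 2.85 (median 1.88) in MET+LEU. The groups SD and MET+LEU did not overlap and the log2 fold change was -1.23 ± 0.18 (adjusted p = 5.08e-06). Hist1h3h led the H3 genes (H3c10, ENSMUSG00000101355, chr13:21717659-21718069). Hist1h3h ran at 4.05 to 7.40 (median 5.61) CPM in 2% HS, 6.39 to 8.57 (median 7.44) in SD, 5.57 to 8.04 (median 7.29) in MET, 4.53 to 6.06 (median 5.59) in LEU and 1.62 to 5.06 (median 3.93) in MET+LEU. It fell without overlap, by -0.97 ± 0.15 (adjusted p = 1.26e-05). Only 25.8% and 6.08% of the 50-base words of these 2 genes are unique.

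Hist1h4f led the H4 genes (H4c6, ENSMUSG00000069274, chr13:23551258-23551648), and 60.5% of its words are unique. Hist1h4f ran at 8.02 to 10.5 (median 10.2) CPM in 2% HS, 10.1 to 18.9 (median 12.8) in SD, 11.4 to 15.6 (median 13.8) in MET, 10.3 to 12.5 (median 10.9) in LEU and 4.29 to 9.37 (median 6.82) in MET+LEU. All MET+LEU libraries lay under all SD libraries, and the log2 fold change was -0.96 ± 0.13 (adjusted p = 2.85e-06). Hist1h2bh, which had risen in SD, gave -0.85 ± 0.16 (adjusted p = 0.000169), and Hist1h3g and Hist1h4i gave -0.71 ± 0.12 (adjusted p = 3.9e-05) and -0.58 ± 0.11 (adjusted p = 0.000177). Hist1h1a (H1.1) led the fall of the linker histones. Hist1h1a ran at 6.83 to 10.8 (median 8.54) CPM in 2% HS, 9.23 to 12.4 (median 10.1) in SD, 8.47 to 13.1 (median 10.8) in MET, 7.38 to 12.4 (median 9.87) in LEU and 6.97 to 8.83 (median 7.87) in MET+LEU. Its value was -0.39 ± 0.12 (adjusted p = 0.014), next to -0.38 ± 0.11 (adjusted p = 0.0135) for Hist1h1b.

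Both H3 genes with the highest CPM fell, whereas neither of the H4 genes with the highest CPM passed the threshold. Hist1h3f ran at 29.2 to 31.9 (median 29.9) CPM in 2% HS, 27.4 to 40.7 (median 34.5) in SD, 28.2 to 39.4 (median 30.4) in MET, 28.02 to 33.6 (median 31.1) in LEU and 16.7 to 26.3 (median 23.5) in MET+LEU. Without overlap it fell by 0.60 ± 0.10 (adjusted p = 6.69e-05). Hist2h3b ran at 20.2 to 22.8 (median 21.6) CPM in 2% HS, 18.9 to 22.5 (median 20.4) in SD, 15.8 to 25.5 (median 17.97) in MET, 17.3 to 24.1 (median 19.8) in LEU and 13.1 to 18.2 (median 14.97) in MET+LEU. It fell likewise, by -0.42 ± 0.09 (adjusted p = 0.0012). Hist1h4d ran at 69.6 to 77.1 (median 71.3) CPM in 2% HS, 66.6 to 83.6 (median 77.2) in SD, 63.7 to 87.7 (median 71.8) in MET, 72.5 to 82.8 (median 74.2) in LEU and 57.5 to 79.5 (median 71.9) in MET+LEU. Its log2 fold change was -0.10 ± 0.07 (adjusted p = 0.348). Hist1h4c ran at 33.4 to 49.4 (median 44.9) CPM in 2% HS, 37.5 to 60.3 (median 54.02) in SD, 47.7 to 56.4 (median 52.1) in MET, 53.3 to 61.3 (median 55.1) in LEU and 32.6 to 50.98 (median 44.8) in MET+LEU. Its value was -0.23 ± 0.11 (adjusted p = 0.152), and with the offset for GC content and length both H4 genes passed the threshold, at -0.205 and -0.344.

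H2A genes were the least precisely measured. Hist1h2ak ran at 9.39 to 17.97 (median 15.8) CPM in 2% HS, 9.62 to 24.6 (median 16.7) in SD, 13.1 to 21.96 (median 19.4) in MET, 8.10 to 18.5 (median 12.7) in LEU and 8.19 to 20.2 (median 14.7) in MET+LEU. The libraries overlapped widely and the change was -0.27 ± 0.26 (adjusted p = 0.528). Hist1h2ab ran at 6.04 to 7.82 (median 6.95) CPM in 2% HS, 6.37 to 10.1 (median 7.04) in SD, 5.21 to 8.99 (median 8.05) in MET, 5.98 to 7.62 (median 6.99) in LEU and 4.61 to 6.63 (median 5.16) in MET+LEU. This gene fell by 0.48 ± 0.12 (adjusted p = 0.00454). Hist1h2ah ran at 0.962 to 1.77 (median 1.28) CPM in 2% HS, 1.15 to 2.85 (median 1.74) in SD, 0.628 to 2.92 (median 1.86) in MET, 1.08 to 2.21 (median 1.89) in LEU and 0.567 to 1.38 (median 1.08) in MET+LEU. Hist1h2ah, the partner of Hist1h2bk on the opposite strand, fell by 0.80 ± 0.28 (adjusted p = 0.0348), a call that was lost without MET+LEU replicate 6 (-0.699, adjusted p = 0.0825), without SD replicate 6 (-0.650, adjusted p = 0.106) and with the GC and length offset (-0.700, adjusted p = 0.0525).

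Hist1h2bc and Hist1h1e were the members that rose in MET+LEU vs. SD. Hist1h2bc ran at 32.9 to 38.8 (median 36.6) CPM in 2% HS, 47.1 to 55.3 (median 50.03) in SD, 50.03 to 63.3 (median 55.8) in MET, 56.1 to 65.04 (median 59.1) in LEU and 56.6 to 92.02 (median 63.1) in MET+LEU. It rose by 0.48 ± 0.09 (adjusted p = 5.43e-05) in SD vs. 2% HS and by 0.37 ± 0.08 (adjusted p = 0.00202) in MET+LEU vs. SD, with no overlap in either. The highest value came from MET+LEU replicate 6, without which the latter value was 0.251 (adjusted p = 0.000599), and with the GC and length offset it was 0.228 (adjusted p = 0.01). Its annotated transcript (H2bc4, ENSMUSG00000018102, chr13:23684199-23692908) has 1156 exon bases within 8710 bases of the genome, and its 3′ UTR lacks the stem-loop in the window searched. It is thus a member whose annotated mRNA lacks the usual 3′ end.

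Hist1h1e ran at 93.8 to 106 (median 103) CPM in 2% HS, 84.6 to 119 (median 99.8) in SD, 105 to 142 (median 119.7) in MET, 116 to 141 (median 134) in LEU and 113 to 141 (median 132) in MET+LEU. Hist1h1e (H1f4, ENSMUSG00000051627, chr13:23620629-23622558) rose by 0.38 ± 0.07 (adjusted p = 0.000533), with overlap from a single SD library. Hist1h1c ran at 164 to 182 (median 177) CPM in 2% HS, 168 to 221 (median 190.3) in SD, 209 to 231 (median 224) in MET, 201 to 232 (median 228) in LEU and 154 to 226 (median 212) in MET+LEU. Hist1h1c gave 0.07 ± 0.07 (adjusted p = 0.537). Both linker genes carry the stem-loop, followed by 1153 and 840 annotated bases, and 68.0% and 91.5% of their words are unique.

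**Figure D3:**
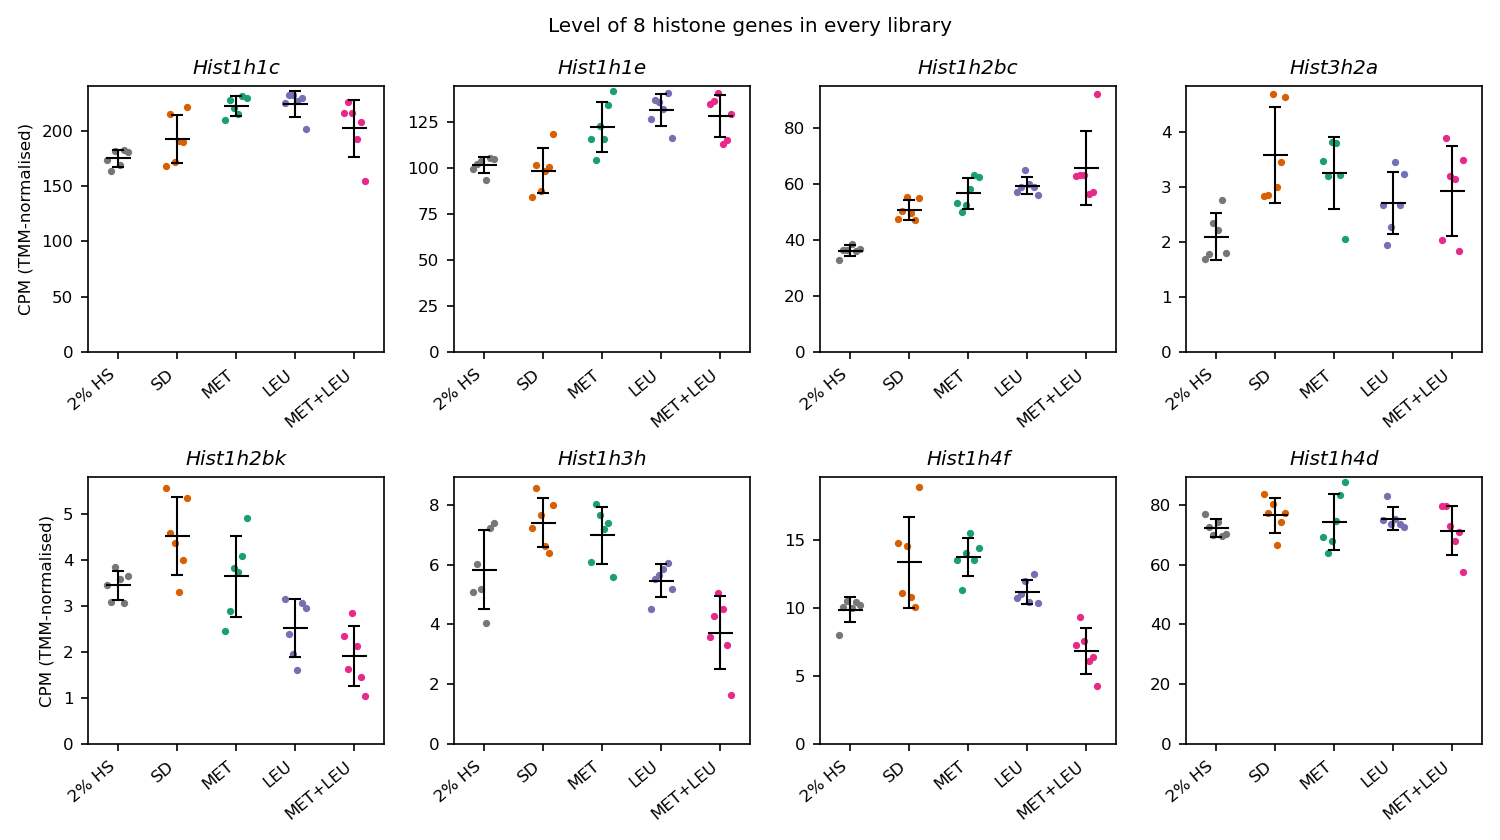
TMM-scaled CPM (vertical axes from 0, each with its own scale) of 8 members in the 6 libraries of each condition, with points for libraries and bars for the mean ± SD. Hist1h2bk, Hist1h3h and Hist1h4f have their lowest values in MET+LEU, Hist1h2bc rises from 2% HS to SD and has its highest point at 92.0 in MET+LEU replicate 6, and Hist1h4d overlaps across conditions.

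Annotation features other than class were set beside the calls in MET+LEU vs. SD. Among members whose annotation ends within 100 bases of the stem-loop 13 of 19 fell (median -0.63), and among those with a longer annotated tail 11 of 20 fell and 1 rose (median -0.35). Those without an annotated 3′ UTR gave 5 of 11 lower (median -0.42), and those with a 3′ UTR but no stem-loop gave 3 of 6 lower and 1 higher (median -0.37). By position, 17 of 28 fell in the group of 31 on chromosome 13, 12 of 18 in the group of 23, 2 of 8 on chromosome 3, and Hist4h4 on chromosome 6. With at least 50% of words unique 17 of 31 fell and 2 rose (median -0.39), and below that 15 of 25 fell (median -0.48). How shared reads were counted is unknown, and their part in these values was not tested. These splits were not tested against each other.

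H2A and H2B genes form 12 divergent pairs whose annotated starts lie 176 to 306 bases apart, of which 9 had both genes tested. Partners share the DNA between them. The H2B gene had the lower log2 fold change in MET+LEU vs. SD by more than 0.1 in 6 pairs, the higher in 2, and lay within 0.1 in 1. Hist1h2ah and Hist1h2bk gave -0.80 and -1.23, and Hist1h2an and Hist1h2bp gave -0.51 and -0.65. Hist1h2ag and Hist1h2bj stood further apart, at 0.16 and -0.75, as did Hist1h2ad and Hist1h2bf, at -0.01 and -0.63. The pair with Hist1h2bc (0.37) has Hist1h2ac at 0.10. Differences within pairs were not tested.

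MET and LEU each against SD asked what a single agent did. With MET 0 members rose and 0 fell by edgeR, where 0.0754% of all genes rose and 0.0817% fell. At an unadjusted p under 0.05 there were 4 higher and 2 lower of 56, where 749 and 848 of 15907 genes were. DESeq2 called Hist1h1e higher and no member lower, where 65 genes were higher and 55 lower of the 8195 to which it gave an adjusted p. The limma-voom test called no member, where 49 of 15907 genes were higher and 31 lower. The median was -0.02. Hist1h1e gave 0.31 ± 0.07 (adjusted p = 0.0756) and Hist1h2bk gave -0.32 ± 0.17 (adjusted p = 0.533).

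With LEU 1 member rose and 4 fell, where 0.233% of all genes rose and 0.321% fell, and the median was -0.14. Hist1h1e rose by 0.42 ± 0.07 (adjusted p = 0.00427). Hist1h2bk fell by 0.84 ± 0.17 (adjusted p = 0.01), without overlap. The H3 gene Hist1h3c fell by 0.67 ± 0.13 (adjusted p = 0.00473): it ran at 5.85 to 9.56 (median 8.10) CPM in SD and 4.21 to 5.85 (median 4.96) in LEU, and the groups overlapped at their edges. The H2B gene Hist1h2bf fell by 0.58 ± 0.12 (adjusted p = 0.0119), and the H4 gene Hist1h4b fell by 0.51 ± 0.11 (adjusted p = 0.0137). At an unadjusted p under 0.05, 4 were higher and 15 lower (26.8%), where 4.68% of all genes were higher and 5.3% lower. Without overlap Hist1h2bc lay above SD (0.786% of all genes did), and Hist1h2bk, Hist1h3h and Hist1h4b lay under it (0.522%). The count of higher members was 3 without MET+LEU replicate 6, through Hist1h1c and Hist1h2bc. The median LEU levels of Hist1h2bk and Hist1h3c lay between those of SD and MET+LEU, and LEU and MET+LEU overlapped.

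The combination was also set against each agent. Against MET, 29 of 56 fell and 0 rose, where 3.15% of all genes fell and 5.54% rose, with a median of -0.43, and in 13 members all MET+LEU libraries lay under all MET libraries (1.28% of all genes) and in 0 above (2.48%). Against LEU, 17 fell and 0 rose, where 1.67% fell and 4.61% rose, with a median of -0.33, and 12 members lay under without overlap (0.861% of all genes) and 0 above (2.73%). At an unadjusted p under 0.05, 1 member was higher than in MET and 0 higher than in LEU. Of all 15907 genes 2080 and 2104 were. DESeq2 and limma-voom called 0 members higher in both. The count against LEU was 11 without LEU replicate 3, without LEU replicate 5 or without MET+LEU replicate 6. Hist1h4i gave -0.52 ± 0.11 (adjusted p = 0.00262) against MET and -0.36 ± 0.11 (adjusted p = 0.0428) against LEU, without overlap in either. Hist1h2bk gave -0.91 ± 0.19 (adjusted p = 0.00156) and -0.39 ± 0.20 (adjusted p = 0.233).

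Whether MET+LEU departed from the sum of both single effects on the log2 scale was tested as an interaction. No member passed by edgeR (0 higher, 0 lower), where 0.0377% of all genes were higher and 0.0126% lower. At an unadjusted p under 0.05, 0 were higher and 21 lower (37.5%), where 5.68% of all genes were higher and 3.05% lower, and the median was -0.29. DESeq2 called Hist1h1c lower, where 24 genes were higher and 4 lower of the 1102 to which it gave an adjusted p. Its lowest MET+LEU value, 154.5 CPM, came from MET+LEU replicate 6. The limma-voom test called Hist1h4f and Hist1h4k lower, where 9 of 15907 genes were higher and 5 lower. Hist1h4f gave -0.74 ± 0.18 (adjusted p = 0.146). Hist1h2bk gave -0.08 ± 0.26 (adjusted p = 0.958), with a 95% interval of -0.58 to 0.42, so neither a deeper nor a shallower joint effect could be told from the sum for this gene.

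**Figure D4:**
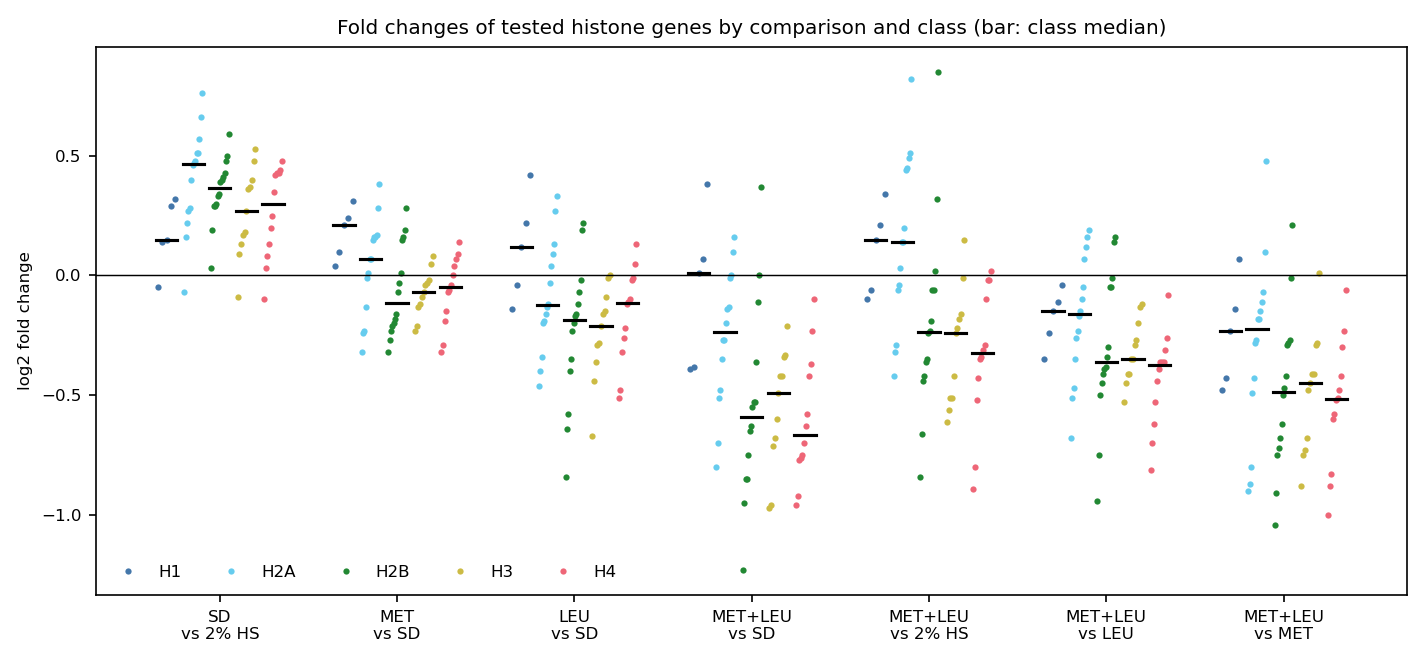
Log2 fold change (vertical axis) of the 56 tested members in 7 comparisons, with a point for each gene, colours for class and black bars for class medians. For MET+LEU vs. SD the class medians are 0.01 for H1, -0.24 for H2A, -0.59 for H2B, -0.49 for H3 and -0.67 for H4. Comparisons that share a condition share its libraries.

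MET+LEU vs. 2% HS asked how far the treated, serum-deprived myotubes stood from serum-fed ones. Here 6 members were higher and 17 lower, where 22.1% of all genes were higher and 20.3% lower. With the offset for GC content and length, 3 were higher (5.36%, against 21% of all genes) and 25 lower (44.6%, against 23.4%). Without overlap 2 lay above (11.5% of all genes did) and 5 lay under (9.51%). Lower members included Hist4h4 (-0.89 ± 0.19, adjusted p = 0.000427), Hist1h2bk (-0.84 ± 0.19, adjusted p = 0.000284) and Hist2h4 (-0.80 ± 0.11, adjusted p = 9.13e-07). Hist4h4 ran at 24.8 to 45.6 (median 33.1) CPM in 2% HS and 6.40 to 22.3 (median 19.7) in MET+LEU, without overlap. The value of 6.40 came from MET+LEU replicate 6, and the other MET+LEU libraries held 18.45 to 22.3. The H1 genes Hist1h1c and Hist1h1e were higher, by 0.21 ± 0.07 (adjusted p = 0.0169) and 0.34 ± 0.07 (adjusted p = 0.000507), as were Hist1h2bc (0.85 ± 0.09, adjusted p = 1.62e-09), Hist2h2ac (0.51 ± 0.13, adjusted p = 0.00175), Hist3h2a (0.49 ± 0.19, adjusted p = 0.0362) and Hist2h2bb (0.32 ± 0.09, adjusted p = 0.00642). The calls of Hist1h1c, Hist3h2a and Hist2h2bb were lost with the offset.

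Of 26 genes that make, process and degrade histone mRNA 4 rose and 1 fell in MET+LEU vs. SD, 19.2% in either direction against 18.4% of all genes. In SD vs. 2% HS 3 rose and 2 fell, 19.2% against 27.8%. Without MET+LEU replicate 6 the counts of higher genes were 2 and 5. Slbp, which encodes the stem-loop binding protein, gave -0.08 ± 0.10 (adjusted p = 0.613) in MET+LEU vs. SD and -0.05 ± 0.10 (adjusted p = 0.729) in SD vs. 2% HS. Npat, the coactivator of histone transcription, gave 0.09 ± 0.05 (adjusted p = 0.229) and -0.12 ± 0.05 (adjusted p = 0.0976). Of the factors of 3′ end processing, Casp8ap2 (FLASH) rose in MET+LEU by 0.31 ± 0.06 (adjusted p = 9.84e-05) and Lsm11 of the U7 particle fell by 0.32 ± 0.10 (adjusted p = 0.0153). Tut7, a terminal uridylyltransferase, rose by 0.21 ± 0.04 (adjusted p = 0.000262). On serum withdrawal the cleavage factor gene Cstf2 fell by 0.30 ± 0.05 (adjusted p = 1.48e-05), and Upf1 and Yy1 rose by 0.17 ± 0.04 (adjusted p = 0.0014) and 0.13 ± 0.04 (adjusted p = 0.00419).

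Genes of DNA replication and S phase moved beside the members. Of 50, 16 rose and 2 fell in SD vs. 2% HS (median 0.18), and 0 rose and 20 fell in MET+LEU vs. SD. For this and the following lists, the shares of all genes were 13.9% higher and 13.9% lower in SD vs. 2% HS. These shares were 10.6% and 7.8% in MET+LEU vs. SD, and 0.233% and 0.321% in LEU vs. SD. Mcm6, of the replicative helicase, rose by 0.33 ± 0.06 (adjusted p = 2.07e-05) in SD, while Cdk2 (-0.29 ± 0.04, adjusted p = 5.2e-07) and Orc6 (-0.26 ± 0.05, adjusted p = 7.19e-05) fell. Mcm5 (-0.76 ± 0.11, adjusted p = 2.04e-06), the cyclin gene Ccna2 (-0.67 ± 0.08, adjusted p = 3.69e-08) and the ribonucleotide reductase gene Rrm2 (-0.26 ± 0.04, adjusted p = 1.38e-05) fell in MET+LEU vs. SD. With LEU 0 rose and 4 fell by edgeR (0 higher and 17 lower at an unadjusted p under 0.05), and with MET 0 were called (0 higher and 9 lower). The summed level of the 50 genes was 942 to 1051 (median 991) CPM in SD and 858 to 902 (median 873) in MET+LEU.

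Genes of mitosis, listed here as markers of cycling cells, fell in MET+LEU vs. SD in 30 of 30 cases (median -0.59). They still did without MET+LEU replicate 6 and with the GC and length offset. Bulk RNA does not show which cells held these transcripts. Ccnb1 gave -0.89 ± 0.11 (adjusted p = 7.68e-08), Top2a -0.64 ± 0.08 (adjusted p = 6.34e-07) and Anln -0.57 ± 0.07 (adjusted p = 5.33e-07). Their summed level was 408 to 500.4 (median 442) CPM in 2% HS, 408 to 546 (median 459) in SD, 389 to 509 (median 414) in MET, 329 to 402 (median 352) in LEU and 298 to 345 (median 322) in MET+LEU. On serum withdrawal 3 rose (Nusap1, Aurkb and Birc5, by 0.31, 0.39 and 0.32) and 0 fell (4 higher and 0 lower at an unadjusted p under 0.05). With LEU 10 fell, and with MET 0 were called by edgeR (0 higher and 9 lower at an unadjusted p under 0.05). The part of cycling cells in the members' changes was not tested.

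Histone chaperones divided. Of 19 chaperones 5 fell in MET+LEU vs. SD, among them Asf1b (-0.50 ± 0.10, adjusted p = 0.000162) and Chaf1a (-0.38 ± 0.09, adjusted p = 0.0027), which deliver H3 and H4 to new DNA, and 5 rose, among them Nap1l1 (0.31 ± 0.05, adjusted p = 7.48e-06), Npm1 (0.30 ± 0.05, adjusted p = 5.38e-05) and Set (0.25 ± 0.04, adjusted p = 2.98e-05). On serum withdrawal 7 rose and 0 fell (9 higher and 0 lower at an unadjusted p under 0.05), with Chaf1a at 0.35 ± 0.09 (adjusted p = 0.00302) and Ssrp1, a FACT subunit, at 0.17 ± 0.05 (adjusted p = 0.00387). Of 11 histone genes outside the clusters, listed here as replication-independent, 4 rose in SD vs. 2% HS, and 2 rose and 3 fell in MET+LEU vs. SD. Cenpa, among the 3 that fell, is also counted with the mitosis genes. H2afz (H2A.Z) gave 0.29 ± 0.05 (adjusted p = 1.34e-05) in the former and -0.27 ± 0.05 (adjusted p = 0.000166) in the latter, and H3f3b (H3.3) gave 0.20 ± 0.04 (adjusted p = 5.32e-05) and 0.19 ± 0.04 (adjusted p = 0.000239). H2afx (H2A.X) gave -0.63 ± 0.10 (adjusted p = 4.46e-05) in MET+LEU vs. SD and H2afy2 (macroH2A2) rose in SD vs. 2% HS by 0.56 ± 0.12 (adjusted p = 0.000399).

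Markers of cell types were read beside these results. All libraries came from 1 myoblast line, so marker levels do not by themselves show that another cell type was present. Myotube genes summed to 52780 to 55440 (median 54630) CPM in 2% HS, 43590 to 46600 (median 46160) in SD, 40110 to 44290 (median 43410) in MET, 48120 to 49730 (median 48510) in LEU and 45520 to 55700 (median 47040) in MET+LEU. These levels matched the label of myotubes, and the median was highest in 2% HS. Of 24, 3 rose and 9 fell in SD vs. 2% HS, with Ckm at -0.98 ± 0.09 (adjusted p = 6.25e-10), Myh7 at -0.66 ± 0.08 (adjusted p = 1.16e-07) and Neb at -0.44 ± 0.06 (adjusted p = 5.2e-07). Of these genes 13 rose and 1 fell in MET+LEU vs. SD, with Tnnc2 at 0.98 ± 0.13 (adjusted p = 1.58e-05), Tnnt3 at 0.82 ± 0.11 (adjusted p = 1.08e-05) and Myh1 at 0.46 ± 0.06 (adjusted p = 1.68e-06). Markers of undifferentiated myoblasts went both ways in SD vs. 2% HS, with 2 higher (Cd34 0.43, Id1 0.33) and 4 lower of 10 tested. Those that fell included Notch3 (-0.98), Heyl (-0.68) and Pax7 (-0.37). In MET+LEU vs. SD 0 were higher and 2 lower (Hey1 -0.51, Notch3 -0.26), and Cd34 stood at 0.16 without passing. Pax3 and Calcr of the 12 listed had too few counts to be tested. Markers of fibroblasts rose in 6 of 7 in SD vs. 2% HS, from 3970 to 4382 (median 4148) to 6729 to 7142 (median 6840) CPM in sum (Col3a1 0.83, Col1a2 0.61, Pdgfra 0.79), and 2 rose and 2 fell in MET+LEU vs. SD (Dcn 0.48, Col1a1 -0.35, Col1a2 -0.12). Immune markers summed to 1.79 to 4.79 CPM over all libraries, mostly Cd68, with Adgre1 at 0 throughout and Ptprc at a median of 0 in every condition. Their part in the members' changes was not tested.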

How the data were processed

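Total RNA of C2C12 myotubes, depleted of ribosomal RNA, was sequenced in 5 conditions of 6 replicates, grouped here by the sample labels. The deposited values are raw counts, whole numbers of reads per gene for 55487 Ensembl genes, which the authors made from stranded libraries. The submitters' processing notes name cutadapt 1.16, STAR 2.7.6a, featureCounts 1.6.3, DESeq2 1.30.1 and the build GRCm38. The annotation release, the strand setting and the handling of reads that match several genes are not given in the sources used here. Library totals were 12784960 to 19604103 counts, and a count of 0 allows up to 3 counts, for counting error only.

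Members and gene lists were chosen with earlier results of these data known. Of the identifiers 55227 matched GENCODE M21, which gave classes, coordinates and transcripts. With filterByExpr of edgeR 4.0.16 in R 4.3.3 (minimum count 10, minimum total 15) 15907 genes were kept, and TMM factors scaled them. All 30 libraries entered 1 quasi-likelihood model (glmQLFit, robust) with a mean per condition. Each contrast took the F test of that model, p-values were adjusted by Benjamini-Hochberg across the 15907 genes, and calls needed an adjusted p under 0.05. Fold changes are log2 ± SE, where the SE is the size of the log2 fold change over the root of F. Levels by condition are the lowest, highest and median CPM of 6 libraries. Such levels were given for the 2 members of each class with the highest mean CPM and, in either main comparison (SD vs. 2% HS, MET+LEU vs. SD), for the called member of each class that moved furthest. From each gene list the 3 genes with the largest F per main comparison could be named, and Slbp, Npat, Casp8ap2 and Lsm11. The values of Asf1b and Chaf1a in MET+LEU vs. SD and the levels of Hist1h3c and Hist4h4 were added after their values were seen. So were the values of Cd34 and Id1 in SD vs. 2% HS. Cenpa is named because it is on 2 lists. Mcm2 is also on 2 lists, and it is counted both with the histone chaperones and with the genes of DNA replication and S phase. Other members appear with their calls or pairs. The edgeR test was tested on simulated data with planted 2-fold changes.

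Alternatives were DESeq2 size factors, upper-quartile factors, the DESeq2 1.42.0 Wald test, limma-voom (3.58.1) with quality weights, a filter of more than 5 counts over all libraries, only the conditions compared, the replicate number as a block, an offset for GC content and length, and leaving out each library in turn. Counts of the gene lists without MET+LEU replicate 6 and with the offset were added after seeing the data.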

Additional observations from a re-analysis of the deposited data

Results flagged for a closer look

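Of 130 groups of 6 libraries checked (20 members and 6 sums, 5 conditions each), 10 held a library whose gap to the nearest of the others exceeded Dixon's 95% critical value, and chance gives about 1 in 20. For Hist1h2bc, MET+LEU replicate 6 stood at 92.0 CPM, above 56.6 to 63.4 in the other 5 MET+LEU libraries. In MET, replicate 6 was apart in 3 members: Hist1h3f at 39.4 against 28.2 to 31.3, Hist2h3b at 25.5 against 15.8 to 19.1, and Hist3h2a, in the other direction, at 2.05 against 3.20 to 3.82. Hist1h1b reached 23.7 in SD replicate 6, against 14.2 to 17.6. Hist1h1c fell to 201.0 in LEU replicate 6, against 224.5 to 232.3, and Hist1h4d reached 82.8 in LEU replicate 2, against 72.5 to 75.2. Hist1h2bh reached 3.35 in MET+LEU replicate 3, against 2.34 to 2.67. In 2% HS, Hist1h4f was 8.02 in replicate 1, against 10.0 to 10.5, and the summed H3 genes were 136.3 in replicate 3, against 119.6 to 124.8.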

How the results depend on the processing

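In MET+LEU vs. SD 26 to 34 members fell under the 8 alternatives and 29 to 34 when a library was left out, and 2 rose under each of them. The offset for GC content and length moved 3 counts by over 1.5 times and turned 1 value: in SD vs. 2% HS 8 rose and 1 fell (18 and 0 without it), in MET+LEU vs. 2% HS 3 were higher, and Hist1h2ab turned to -0.029 in SD vs. 2% HS. Counts of 1 in MET vs. SD (higher, DESeq2 Wald test), 2 in LEU vs. SD (higher, limma-voom and the fit of only the groups compared), and 1 and 2 lower in the interaction (DESeq2 Wald test and limma-voom) differed from 0, 1 and 0. Leaving out 1 library gave 14 to 22 higher in SD vs. 2% HS, 0 to 2 higher in MET vs. SD, 1 to 3 higher in LEU vs. SD, 0 to 2 lower in the interaction and 11 to 18 lower in MET+LEU vs. LEU. The count in MET vs. SD was 2 without SD replicate 6, that in LEU vs. SD was 3 without MET+LEU replicate 6, and that in the interaction was 2 without SD replicate 6 or without MET+LEU replicate 2. The cause was not tested.

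Libraries with the same replicate number were little correlated: the mean correlation of deviations was 0.0157 over 60 pairs, and the lowest was -0.0913. Over 300 pairs with different numbers the mean was -0.00314. Of 30 libraries 11 correlated best with their own number among 6, and whether the numbers mark a pairing was not tested. With the replicate block 33 members fell and 2 rose in MET+LEU vs. SD, 19 rose in SD vs. 2% HS and 16 fell in MET+LEU vs. LEU. Without MET+LEU replicate 6, 1 of 11 replication-independent histones rose and 0 of 24 myotube genes fell in MET+LEU vs. SD (2 and 1 with it). With the GC and length offset 3 myotube genes fell and 1 fibroblast marker rose (1 and 2 without it). Members with few counts or few unique words limit what single genes can show.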
